A study of Mus musculus with 10 samples.

Results

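The kinesin motor genes were taken as the genes of the count files whose mouse symbol is Kif, a number and at most a final a, b or c, 38 of the 55414 genes counted in each of 10 libraries. By textbook role they were sorted into 15 cargo kinesins, which carry vesicles, organelles and other loads along microtubules, 12 mitotic kinesins, which act on the spindle, the chromosomes or the midbody, and 11 other kinesins. The libraries hold RNA of whole dorsal root ganglia (DRG) of mouse embryos at E18.5, read by bulk RNA sequencing, from 5 control and 5 *WD1* cKO samples. Control littermates carried *Dach1* flox/flox and no Cre (Wnt1+/+), whereas *WD1* cKO embryos carried *Dach1* flox/flox together with Wnt1Cre/+. The floxed exon 2 was thus present in both groups before recombination. The flox line was kept on a mixed C57Bl/6J and CD1 background. Wnt1-Cre acts in the neural crest, from which both neurons and glia of the DRG descend, so that its activity is not limited to neurons. Titles and genotype entries of the deposited labels disagree, each group carrying the other's genotype entry. The titles were followed. The comparison asks which transcripts differ in DRG when *Dach1*, a transcriptional corepressor, is deleted. Total counts ran from 20465132 to 27528784 in control (median 22544236) and from 19757596 to 34796562 in *WD1* cKO libraries (median 26377947).

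Kinesins are motors that turn over ATP to walk along microtubules or to shorten them. In sensory neurons, whose axons reach from the skin to the spinal cord, cargo kinesins move synaptic vesicle precursors, mitochondria, lysosomes and neurofilaments away from the cell body, while dynein carries loads back. Mitotic kinesins are made in dividing cells, to build the spindle, move chromosomes and complete cytokinesis, and are switched off in most cells that have left the cycle.

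*Dach1*, the targeted gene, was lower in *WD1* cKO embryos, as the titles state. Its counts were 719, 872, 884, 1008 and 850 in control replicates 1 to 5 and 454, 546, 589, 399 and 708 in *WD1* cKO replicates 1 to 5. As counts per 1000000 of the TMM-scaled library (CPM), it fell from 37.9 ± 2.40 to 20.0 ± 0.677 (SD, n = 5). The log2 fold change was −0.92, with an adjusted p of 5.48e-06 by the quasi-likelihood test of edgeR with Benjamini-Hochberg adjustment. Counts are per gene, so transcript of *Dach1* outside exon 2 would still be counted. The source of the remaining counts was not tested.

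Some libraries stood apart in ways that the genotype does not describe. Control replicate 3 held markers of spinal cord: *Slc6a5*, the glycine transporter of inhibitory neurons, stood at 4.66 CPM there and at 0 to 0.364 CPM in the other libraries. In the same library *Nefm*, a neurofilament subunit and the most abundant of the 10 neuron markers, was at 1783 CPM, against 2421 to 3103 CPM elsewhere. Summed over the 4 blood markers, levels were 1965, 1368, 799, 127 and 149 CPM in control replicates 1 to 5 and 853, 521, 369.5, 185 and 144 in *WD1* cKO replicates 1 to 5. Replicates 4 and 5 of both groups therefore held the lowest blood levels. Values within replicates 1 to 3 and within replicates 4 and 5 are given beside the pooled ones for kinesins singled out in the comparison of genotypes.

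Cargo kinesins made up most kinesin transcript of these ganglia. Per kilobase of merged exons, the scale on which levels of different genes are compared here, the 15 cargo kinesins summed to 996 ± 48.4 CPM per kb in control embryos (SD, n = 5). This was 92.2% ± 0.363 of the sum over 38 kinesins. The 12 mitotic kinesins summed to 24.5 ± 1.82 CPM per kb, or 2.27% ± 0.211, and the 11 other kinesins to 60.1 ± 1.55 CPM per kb, or 5.57% ± 0.173. By summed level per kb, cargo exceeded mitotic kinesins 40.9 ± 4.18 fold in control, and 32.5 fold when the longest transcript was taken as the length of a gene. Of the 15 cargo kinesins, 13 lay above the highest mitotic kinesin in all 10 libraries, and *Kif17* was the one whose control mean per kb was below it. In bulk RNA, fewer cells of a type and less RNA per cell cannot be told apart.

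**Figure D1:**
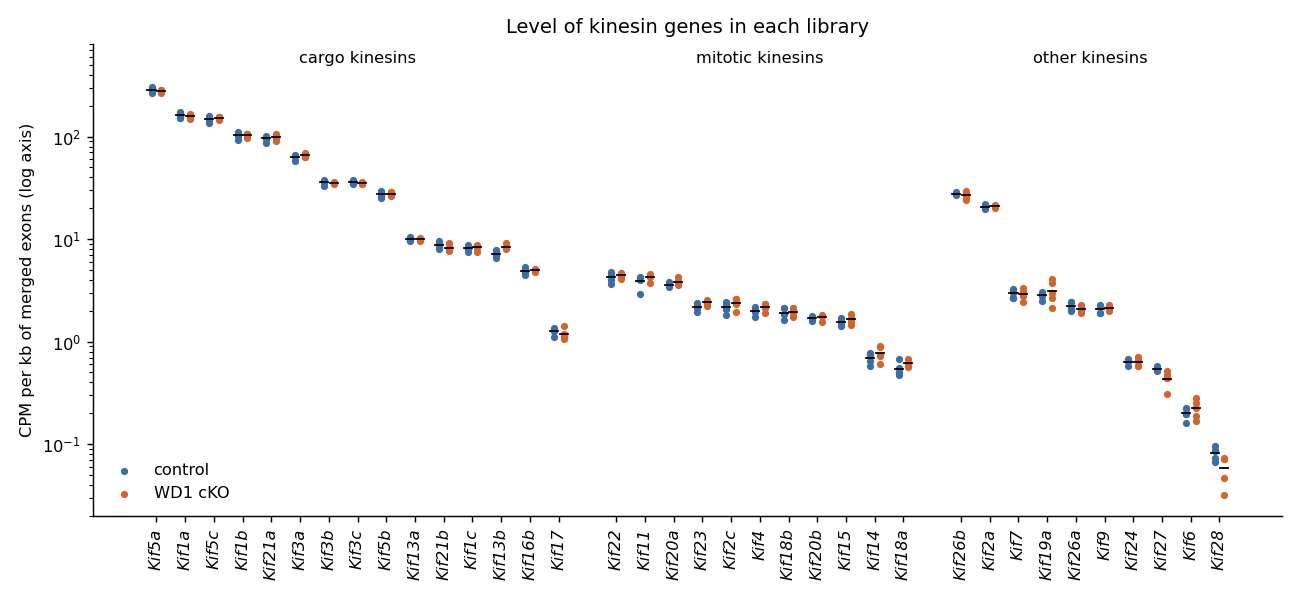
Level of each kinesin in CPM per kb of merged exons (log axis) in the 10 libraries, by role; points are libraries, coloured by genotype, and bars are means. *Kif2b* and *Kif12* are not drawn. *Kif5a* is highest at 284 CPM per kb in control, the highest mitotic kinesin on this scale, *Kif22*, stands at 4.25 (per kb of the longest transcript it is *Kif11*, at 6.05), and the points of control and *WD1* cKO embryos lie on each other for most genes.

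Conventional kinesin, which carries vesicles, mitochondria and slow axonal cargo, has 3 heavy chains. *Kif5a*, its neuronal form, was the highest cargo kinesin per kb. *Kif5a* was at 1975, 1924, 1848, 2070.1 and 2120.3 CPM in control replicates 1 to 5 and 1945, 2008, 1866, 1977 and 1934 in *WD1* cKO replicates 1 to 5. *Kif5c*, a second neuron-enriched form, was at 1070.2, 1064, 974, 1034 and 1135 CPM in control replicates 1 to 5 and 1117, 1104, 1044, 1107 and 1069 in *WD1* cKO replicates 1 to 5. *Kif5b*, the ubiquitous form, was at 226, 209, 199, 223 and 236 CPM in control replicates 1 to 5 and 212, 219, 213, 230.2 and 230.4 in *WD1* cKO replicates 1 to 5. The ranges of control and *WD1* cKO libraries overlapped for each of these genes, with control replicate 5 the highest library for *Kif5a*. Per length, control levels were 284 ± 15.7 CPM per kb for *Kif5a*, 148 ± 8.19 for *Kif5c* and 27.4 ± 1.85 for *Kif5b* (SD, n = 5). *Kif5a* thus gave 61.9% of the heavy chain transcript, *Kif5c* 32.2% and *Kif5b* 5.96%.

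*Kif1a*, which carries synaptic vesicle precursors and dense core vesicles down axons, was the second highest kinesin per kb of merged exons, at 161 ± 10.6 CPM per kb in control (SD, n = 5). Across libraries *Kif1a* was at 1407, 1416, 1489.9, 1572 and 1635 CPM in control replicates 1 to 5 and 1466, 1557, 1369.8, 1498 and 1445 in *WD1* cKO replicates 1 to 5. *Kif1b*, a motor of mitochondria and synaptic vesicle precursors, was at 1839, 1797, 1638, 1868 and 1968 CPM in control replicates 1 to 5 and 1855, 1864, 1721, 1864 and 1806 in *WD1* cKO replicates 1 to 5. *Kif1c*, a more widely expressed vesicle motor, was at 54.7, 58.5, 64.1, 59.6 and 58.1 CPM in control replicates 1 to 5 and 54.1, 59.7, 61.5, 63.8 and 62.2 in *WD1* cKO replicates 1 to 5. In these 3 genes, too, the libraries of the groups overlapped. Per length *Kif1a* made up 59.1% of the Kif1 transcript in control, *Kif1b* 37.9% and *Kif1c* 2.98%. With the longest transcript as length the shares were 49.5% for *Kif1a*, 48.1% for *Kif1b* and 2.39% for *Kif1c*, and *Kif1a* was above *Kif1b* in 5 of 10 libraries, so the lead of *Kif1a* rests on the length taken. The control ranges of *Kif1a* and *Kif5c* per kb overlapped although *Kif1a* was above *Kif5c* in each of the 10 libraries. *Kif1b* (103 ± 6.85 CPM per kb) was above *Kif21a* (96.0 ± 5.73) in 9 of 10.

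The Kif3 motors work as pairs, *Kif3a* with *Kif3b* or with *Kif3c*, and carry vesicles in axons and building material into cilia. *Kif3a* was at 229.9, 226, 208, 233 and 239 CPM in control replicates 1 to 5 and 233, 226, 227, 244 and 246 in *WD1* cKO replicates 1 to 5. *Kif3b* was at 204, 209, 186, 205 and 212 CPM in control replicates 1 to 5 and 199.6, 199, 192, 198 and 202 in *WD1* cKO replicates 1 to 5. *Kif3c*, enriched in neurons, was at 261, 259, 257, 274 and 279.8 CPM in control replicates 1 to 5 and 263, 267, 254, 257 and 258 in *WD1* cKO replicates 1 to 5. Control replicate 3 was the lowest library for *Kif3b*, and the groups overlapped for each Kif3 gene. Per length *Kif3a* gave 46.8% of the Kif3 transcript in control, and its partners *Kif3b* and *Kif3c* gave 26.6% each, with *Kif3b* the higher of these partners in 4 of 10 libraries.

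*Kif21a*, which halts microtubule growth and travels along axons, was at 618, 629, 562, 637 and 662 CPM in control replicates 1 to 5 and 642, 619.5, 589, 649 and 680.1 in *WD1* cKO replicates 1 to 5. Its relative *Kif21b*, which restrains microtubule growth in neurons, was at 106, 111, 117, 104 and 96.8 CPM in control replicates 1 to 5 and 111, 102, 95.9, 96.0 and 92.7 in *WD1* cKO replicates 1 to 5. The libraries of the groups overlapped for both. *Kif21a* gave 91.6% of their joint level per length in control. Of the remaining cargo kinesins, *Kif13a*, a motor of recycling endosomes, stood at 9.98 ± 0.342 CPM per kb in control, and *Kif13b*, which carries membrane proteins and binds the scaffold Dlg1, at 7.18 ± 0.497 (SD, n = 5). *Kif16b*, a motor of early endosomes, stood at 4.88 ± 0.329 CPM per kb, and *Kif17*, a dendritic and ciliary motor, at 1.27 ± 0.0924. Exons of *Kif17* overlap those of *Sh2d5* on the same strand, which was at 16.2 CPM against 5.82 CPM for *Kif17* in control. The *Kif17* level is therefore uncertain.

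Mitotic kinesins were low, and 11 of 12 were detected. *Kif22*, which pushes chromosome arms away from the poles, was the highest per kb of merged exons and stood at 21.5, 19.5, 23.5, 17.7 and 22.0 CPM in control replicates 1 to 5 and 20.1, 22.3, 21.3, 22.8 and 22.4 in *WD1* cKO replicates 1 to 5. *Kif11*, the motor that drives spindle poles apart, was at 30.0, 31.0, 32.1, 21.6 and 31.1 CPM in control replicates 1 to 5 and 27.8, 32.8, 31.5, 34.1 and 32.8 in *WD1* cKO replicates 1 to 5. *Kif20a*, needed for cytokinesis, was at 15.6, 15.0, 16.4, 15.5 and 15.4 CPM in control replicates 1 to 5 and 15.4, 18.4, 16.9, 16.3 and 15.8 in *WD1* cKO replicates 1 to 5. Control replicate 4 was the lowest library for *Kif11*, and the groups overlapped for these 3 genes. In control, levels per length were 4.25 ± 0.461 CPM per kb for *Kif22*, 3.91 ± 0.574 for *Kif11* and 3.59 ± 0.124 for *Kif20a* (SD, n = 5), and neighbours in this order had overlapping ranges. The order depended on the length taken: per kb of the longest transcript *Kif11* was at 6.05 CPM per kb, *Kif22* at 5.82, *Kif23* at 5.07 and *Kif20a* at 4.24, with *Kif11* above *Kif22* in 9 of 10 libraries. Per kb of merged exons, next came *Kif23*, a motor of the central spindle, at 2.18 ± 0.157 CPM per kb, *Kif2c*, which depolymerises microtubules at kinetochores, at 2.16 ± 0.250, and *Kif4*, a chromosome-bound motor, at 1.98 ± 0.160. *Kif18b*, which acts on astral microtubules, stood at 1.92 ± 0.196 CPM per kb, *Kif20b*, of cytokinesis, at 1.68 ± 0.0756, and *Kif15*, which backs up *Kif11*, at 1.55 ± 0.107. With the longest transcript as length *Kif15* was at 3.52 CPM per kb, above *Kif2c* (3.32), *Kif4* (2.19), *Kif20b* (2.10) and *Kif18b* (2.06). Lowest were *Kif14*, of the midbody, at 0.697 ± 0.0848 CPM per kb and *Kif18a*, which damps chromosome movements, at 0.541 ± 0.0845 with 98 to 208 counts a library. *Kif2b* had 0 counts in the 10 libraries, and a count of 0 allows up to 0.0862 to 0.152 CPM, counting error alone considered. Exons of *Kif20a* overlap those of *Cdc23* on the opposite strand (84.1 CPM in control against 15.6 for *Kif20a*). Exons of *Kif4* overlap those of *Pdzd11* (26.5 CPM against 10.9), and those of *Kif18a* overlap *Mettl15* (5.46 CPM against 5.31), both on the opposite strand. These levels, and the log2 fold changes of these genes, depend on the strand setting of the counting, which the sources used do not state.

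Most mitotic kinesins with a promoter window held a short motif that their selection did not use. Promoter windows from RefSeq on GRCm38.p6, 300 bases from 250 before to 50 after the start, were at hand for 31 of 38 kinesins. They covered 11 cargo kinesins in 13 windows, 11 mitotic in 11 and 9 other in 11. No window was found for *Kif5a*, *Kif5b*, *Kif13b*, *Kif19a*, *Kif20a*, *Kif21b* and *Kif28*. The core of the cell cycle genes homology region, TTTGAA, read on both strands, was found in 9 of 11 windows of mitotic kinesins (81.8%), 1 of 13 windows of cargo kinesins (7.69%, *Kif1a*) and 2 of 11 of other kinesins (*Kif26b* and *Kif27*), against 17.9% of all 32851 windows. Within 50 bases of the start, a distance chosen after the positions were seen, it was found for 7 of 11 mitotic kinesins (63.6%), 1 cargo kinesin (*Kif1a*), 1 other kinesin (*Kif26b*) and in 4.94% of all windows. The cell cycle markers, which are not kinesins, held TTTGAA in 13 of 19 windows (68.4%), within 50 bases of the start in 57.9%, and CCAAT in 84.2%. The NF-Y box CCAAT, read on both strands, occurred in 7 of 11 mitotic windows, in 4 of 13 cargo windows and in 37.4% of all windows. The motifs do not overlap each other in the sequences printed. Shown are the 3 mitotic kinesins with a match shortly before the start (60 bases up to the start) and 3 of the 4 with one just past it (30 bases around the match). For contrast follow the 60 bases before the start of the cargo kinesin *Kif5c*, which held no match. The stretches lie at chr19:37376322-37376381 on the plus strand for *Kif11*, chr7:127042421-127042480 on the minus strand for *Kif22* and chr9:122951021-122951080 on the plus strand for *Kif15*. Those past the start lie at chr9:61946780-61946809 on the minus strand for *Kif23*, chr11:102925104-102925133 on the minus strand for *Kif18b* and chrX:100626072-100626101 on the plus strand for *Kif4*, and that of *Kif5c* at chr2:49619226-49619285 on the plus strand. Capitals mark TTTGAA or its reverse complement TTCAAA, and CCAAT or its reverse complement ATTGG.
Kif11: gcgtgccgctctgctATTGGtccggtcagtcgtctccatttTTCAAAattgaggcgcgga
Kif22: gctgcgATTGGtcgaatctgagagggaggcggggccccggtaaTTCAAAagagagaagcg
Kif15: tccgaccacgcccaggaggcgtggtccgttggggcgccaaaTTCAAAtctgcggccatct
Kif23: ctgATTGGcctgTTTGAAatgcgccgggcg
Kif18b: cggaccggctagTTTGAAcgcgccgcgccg
Kif4: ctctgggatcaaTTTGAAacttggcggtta
Kif5c: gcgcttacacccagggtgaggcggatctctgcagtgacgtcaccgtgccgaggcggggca
The match of *Kif11* began 19 bases before the start, as did the nearer one of *Kif15*, and the nearer one of *Kif22* began 17 bases before it. Those of *Kif23*, *Kif18b* and *Kif4* began at bases 3, 4 and 20 after it. No TTTGAA was found in the windows of *Kif18a* and *Kif2b*. A match describes letters in a window and does not show that a factor binds there.

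**Figure D2:**
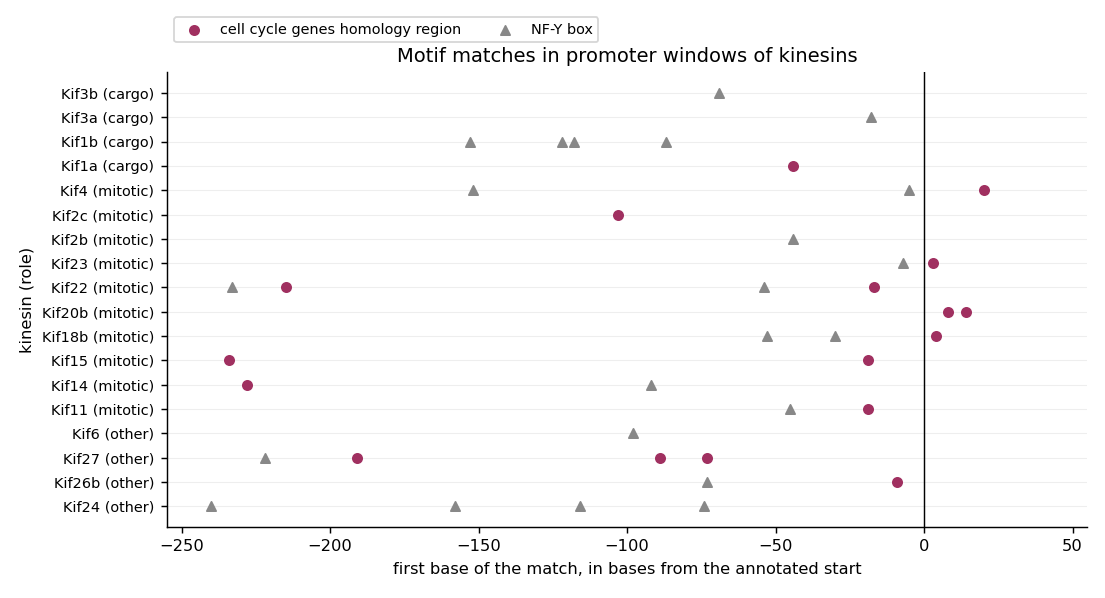
Distance of each match from the start site in bases, for the kinesins with a match, by role; circles mark the cell cycle genes homology region and triangles the NF-Y box, and *Kif1b* has 2 overlapping windows. Matches of the first kind lie within 50 bases of the start in 7 of 11 mitotic kinesins with a window.

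Among the other kinesins, 9 of 11 had enough counts to be tested. *Kif26b*, an atypical kinesin that binds microtubules without walking, was the highest and stood at 399, 407, 412, 407 and 420.3 CPM in control replicates 1 to 5 and 433, 411, 394, 368 and 354 in *WD1* cKO replicates 1 to 5. Its relative *Kif26a*, which restrains Ret signalling in enteric neurons, was at 14.4, 13.8, 16.8, 14.6 and 16.8 CPM in control replicates 1 to 5 and 15.5, 15.8, 13.9, 13.9 and 13.3 in *WD1* cKO replicates 1 to 5. *Kif2a*, a depolymerase that trims axon branches, was at 128, 135, 126, 131 and 141 CPM in control replicates 1 to 5 and 135, 137, 136, 135 and 128 in *WD1* cKO replicates 1 to 5. The groups overlapped for these 3 genes, with *WD1* cKO replicates 4 and 5 the lowest libraries for *Kif26b*. Per length *Kif26b* was at 27.8 ± 0.538 CPM per kb in control (SD, n = 5) and gave 92.7% of the joint level of *Kif26a* and *Kif26b*, while *Kif2a* was at 20.7 ± 0.940. *Kif7*, the ciliary regulator of Hedgehog signalling, was at 14.5, 14.9, 13.7, 12.3 and 12.3 CPM in control replicates 1 to 5 and 14.3, 12.7, 15.4, 13.5 and 11.1 in *WD1* cKO replicates 1 to 5. Control levels per kb were lower for *Kif19a* (2.82 ± 0.205) and *Kif9* (2.10 ± 0.186), both of motile cilia, for the centriolar *Kif24* (0.638 ± 0.0359), for *Kif27* (0.544 ± 0.0231), a relative of *Kif7*, and for the ciliary *Kif6* (0.200 ± 0.0252, 20 to 59 counts a library). *Kif28* had 3 to 9 counts and *Kif12* had 0 to 9, too few to be tested.

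Between genotypes, no kinesin passed the adjusted threshold. Of 35 kinesins tested, 0 had an adjusted p under 0.05 by the quasi-likelihood test of edgeR with Benjamini-Hochberg adjustment (smallest adjusted p 0.686), against 7 of 17490 genes tested (0.04%). At an unadjusted p under 0.05 there were 3 (8.57%), *Kif13b*, *Kif23* and *Kif27*, against 4.5% of all genes. DESeq2's Wald test gave 0 adjusted and 2 unadjusted (*Kif13b* and *Kif23*). The count of 3 fell to 1 without *WD1* cKO replicate 3 or without *WD1* cKO replicate 4, and was 5 without *WD1* cKO replicate 1. Without control replicate 3, the library with spinal cord markers, it was 3 (*Kif3b*, *Kif13b* and *Kif27*), and with both libraries of number 3 left out it was 1 (*Kif13b*). The share of 4.5% belongs to the edgeR fit of all 10 libraries. None is given for DESeq2 or for fits with libraries left out. The study's own threshold (unadjusted p under 0.005, log2 fold change beyond 0.15 in either direction) was set there on a DESeq2 analysis. Applied here to the edgeR fit, it was met by 1 kinesin (2.86%) and by 0.383% of all genes. Groups that did not overlap were found for 1 kinesin (2.86%) and 1.06% of all genes, the kinesin being *Kif13b* in both counts. The log2 fold change was above 0 for 22 and below 0 for 13 kinesins, with a median of 0.026, while 50.1% of all genes were above 0 with a median of 0.00022. For 25 kinesins the 95% confidence interval of the log2 fold change lay within −0.3 and 0.3.

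**Figure D3:**
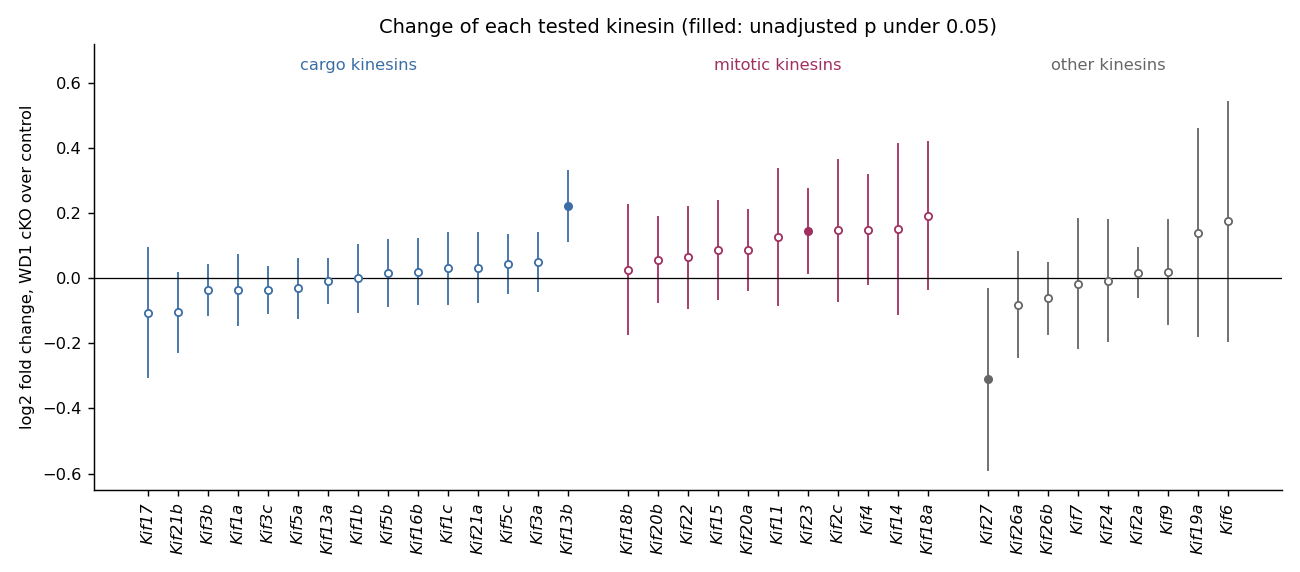
Log2 fold change of *WD1* cKO against control for the 35 kinesins tested, by role, with 95% confidence intervals from edgeR. *Kif13b* stands at 0.22 among the cargo kinesins, 11 of 11 mitotic kinesins lie above 0, and *Kif27* is lowest at −0.31.

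*Kif13b* was the kinesin with the smallest p, and each *WD1* cKO library lay above each control library. It was at 98.6, 101, 90.5, 91.5 and 85.4 CPM in control replicates 1 to 5 and 119, 108, 105, 107 and 106 in *WD1* cKO replicates 1 to 5. *WD1* cKO replicate 1 was the highest library, and the lowest *WD1* cKO library exceeded the highest control library by less than either group's own range. Its mean was 93.5 ± 6.47 CPM in control and 109 ± 5.58 CPM in *WD1* cKO embryos (SD, n = 5), a log2 fold change of 0.22 (95% confidence interval 0.11 to 0.33), with an adjusted p of 0.686 by the quasi-likelihood test of edgeR with Benjamini-Hochberg adjustment. Unadjusted, edgeR gave p = 0.000824, and an exact two-sided permutation test of its log2 CPM gave p = 0.00794, the smallest that 5 against 5 libraries can give. Within replicates 1 to 3 the log2 fold change was 0.19 (adjusted p = 0.929), and within replicates 4 and 5 it was 0.27 (adjusted p = 0.341). *Kif13b* and *Dach1* both lie on chromosome 14, and both groups carried *Dach1* flox/flox before recombination. The part of that linkage in the difference was not tested. As a share of the joint level of *Kif13a* and *Kif13b* per kb, *Kif13b* was 41.8% ± 2.00 in control and 45.8% ± 1.46 in *WD1* cKO embryos (SD, n = 5). With the longest transcript as length these shares were 47.2% ± 2.05 and 51.2% ± 1.47.

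The other 14 cargo kinesins had log2 fold changes from −0.11 to 0.05, with 95% bounds from −0.31 to 0.14 and a smallest unadjusted p of 0.0891 by edgeR, for *Kif21b*. *Kif21b* had an unadjusted p under 0.05 without control replicate 5, without *WD1* cKO replicate 1, and with a term for replicates 1 to 3 against 4 and 5 (log2 fold change −0.11, adjusted p = 0.605). Control replicate 3 was its highest library, at 117 CPM, and its log2 fold change, −0.11 over all libraries, was −0.072 without that library and −0.057 (adjusted p = 1.00) without both libraries of number 3. Of the 15 cargo kinesins 7 had a positive and 8 a negative log2 fold change, and their median was −0.00023, beside 0.00022 over all genes. *Kif5a* had a log2 fold change of −0.031 (SE 0.043), *Kif1a* of −0.036 (SE 0.051) and *Kif3a* of 0.050 (SE 0.043). Some of these values changed sign between the sets of libraries. Within replicates 1 to 3 the log2 fold changes were 0.016 for *Kif5a*, 0.025 for *Kif1a*, 0.046 for *Kif3a*, 0.011 for *Kif3c* and −0.12 for *Kif21b*. Replicates 4 and 5 alone gave −0.10, −0.12, 0.053, −0.10 and −0.093 in the same order, with an unadjusted p under 0.05 for *Kif1a* (adjusted p = 0.776) and *Kif3c* (adjusted p = 0.760). Positive values were found for 10 of 15 cargo kinesins in replicates 1 to 3 and for 7 of 15 in replicates 4 and 5. The difference between the sets was not tested. The summed level of the 15 cargo kinesins was 986, 977, 933, 1020.3 and 1062 CPM per kb in control replicates 1 to 5 and 1000.4, 1013, 947, 1013 and 997 in *WD1* cKO replicates 1 to 5. Control replicates 3 and 5 were the lowest and highest of the 10 libraries, and the *WD1* cKO libraries lay between them. Control replicate 3, the library with spinal cord markers, was also the lowest for 7 of 15 cargo kinesins and 6 of 10 neuron markers, and the part of those markers in these levels was not tested.

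Mitotic kinesins had positive log2 fold changes in 11 of 11 genes tested, from 0.026 for *Kif18b* to 0.19 for *Kif18a*, with a median of 0.13 beside 0.00022 over all genes. *Kif18a* was at 0.29 without control replicate 2, then with an unadjusted p under 0.05, at 0.12 with *Xist* as a covariate and at 0.11 without both libraries of number 3. It was at 0.16 in replicates 1 to 3 and 0.23 in replicates 4 and 5, and *Kif18b* at 0.048 and −0.0095. Of these 11, 10 did not reach an unadjusted p of 0.05. *Kif23* did, and was at 18.8, 17.7, 16.8, 15.4 and 17.4 CPM in control replicates 1 to 5 and 19.0, 18.8, 20.3, 19.6 and 17.6 in *WD1* cKO replicates 1 to 5. Its groups overlapped, with *WD1* cKO replicate 5 below 2 of the control libraries. Its mean was 17.2 ± 1.24 CPM in control and 19.1 ± 0.984 CPM in *WD1* cKO embryos (SD, n = 5). The log2 fold change was 0.15 (SE 0.061), with p = 0.0333 and adjusted p = 1.00 by the quasi-likelihood test of edgeR with Benjamini-Hochberg adjustment, and an exact two-sided permutation test gave p = 0.0317. By edgeR, *Kif23* no longer had an unadjusted p under 0.05 without control replicate 3 or 4, without *WD1* cKO replicate 1, 2, 3 or 4, or with *Xist* as a covariate. Other mitotic kinesins reached an unadjusted p under 0.05 in some fits. *Kif20a* did with *Xist* as a covariate, and *Kif4* and *Kif2c* did without *WD1* cKO replicate 1. *Kif4* also did without control replicate 5, where *Kif23* kept its own. *Kif4* lies on the X chromosome, and its log2 fold change was 0.15 in the reported fit and 0.13 with *Xist* as a covariate. The part of embryo sex in these values was not tested. Within replicates 1 to 3 the log2 fold change of *Kif23* was 0.12 (adjusted p = 0.929) and within replicates 4 and 5 0.18 (adjusted p = 0.813). The summed level of the mitotic kinesins was 24.7, 24.6, 25.7, 21.4 and 25.9 CPM per kb in control replicates 1 to 5 and 23.6, 27.5, 27.0, 27.2 and 25.9 in *WD1* cKO replicates 1 to 5. Control replicate 4 was lowest and *WD1* cKO replicate 1 next lowest, and the groups overlapped.

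Cell cycle markers were set beside the mitotic kinesins. Of 22 markers 17 had a positive log2 fold change, with a median of 0.11. Without control replicate 4 the median was 0.073, with 14 positive, and it was 0.060 within replicates 1 to 3 and 0.21 within replicates 4 and 5. Of the 22, 0 had an adjusted p under 0.05 by the quasi-likelihood test of edgeR with Benjamini-Hochberg adjustment or by DESeq2's Wald test. By either tool 2 had an unadjusted p under 0.05, *Ttk* and *Bub1* (4.5% of all genes by edgeR). By edgeR this count was 9 without *WD1* cKO replicate 1, 5 with control 1 or control 5 left out, 3 with control 3 left out, and 1 when control 4 or *WD1* cKO 5 was left out. The count was 1 in replicates 1 to 3 alone and 6 in replicates 4 and 5 alone. The share of 4.5% belongs to the fit of all 10 libraries, and none is given for these other fits. *WD1* cKO replicate 1 was the lowest of the 10 libraries for 7 of 22 cell cycle markers, 1 of 11 mitotic kinesins and 5 of 8 glia markers. Its median log2 ratios to the control mean were −0.089, −0.071 and −0.16, and the part of glia in these values was not tested. *Ttk*, a spindle checkpoint kinase, was at 5.51, 5.51, 5.98, 5.48 and 5.54 CPM in control replicates 1 to 5 and 5.90, 7.41, 8.18, 6.10 and 6.32 in *WD1* cKO replicates 1 to 5. *Bub1*, another checkpoint kinase, was at 10.6, 11.1, 12.6, 9.27 and 11.5 CPM in control replicates 1 to 5 and 11.1, 13.4, 12.8, 13.5 and 13.8 in *WD1* cKO replicates 1 to 5. *Mki67*, the most abundant of the 22 in CPM, was at 95.0, 95.7, 91.6, 77.0 and 96.6 CPM in control replicates 1 to 5 and 87.6, 112, 100, 105 and 91.3 in *WD1* cKO replicates 1 to 5. Control and *WD1* cKO libraries overlapped for these 3 genes. Their log2 fold changes were 0.28 for *Ttk* (exact permutation p = 0.0159), 0.23 for *Bub1* (exact permutation p = 0.0317) and 0.12 for *Mki67* (exact permutation p = 0.246). The summed level of the 22 markers was 496, 471, 495, 417 and 497 CPM in control replicates 1 to 5 and 442, 552, 528, 532 and 499.8 in *WD1* cKO replicates 1 to 5. None of the 22 was at 0 in all libraries. Control replicate 4 was the lowest of the 10 libraries for 8 of 11 mitotic kinesins and for 13 of 22 cell cycle markers. Without it, 10 of 11 mitotic kinesins had a positive log2 fold change, *Kif18b* being the exception at −0.027, and their median was 0.085. Within replicates 1 to 3 the median over the mitotic kinesins was 0.063, with 9 of 11 positive, and within replicates 4 and 5 it was 0.18, with 10 of 11 positive. Markers of connective tissue also had positive log2 fold changes, in 6 of 6 genes (median 0.095), as did 6 of 8 glia markers (median 0.048). Summed over the 6 connective tissue markers, of which *Col3a1* was the most abundant and none was at 0 in all libraries, levels were 4533, 4388, 5835, 4191 and 4359.9 CPM in control replicates 1 to 5 and 4834, 5334, 5445, 4909 and 4635 in *WD1* cKO replicates 1 to 5. The parts of connective tissue, glia and the number of dividing cells in these values were not tested.

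**Figure D4:**
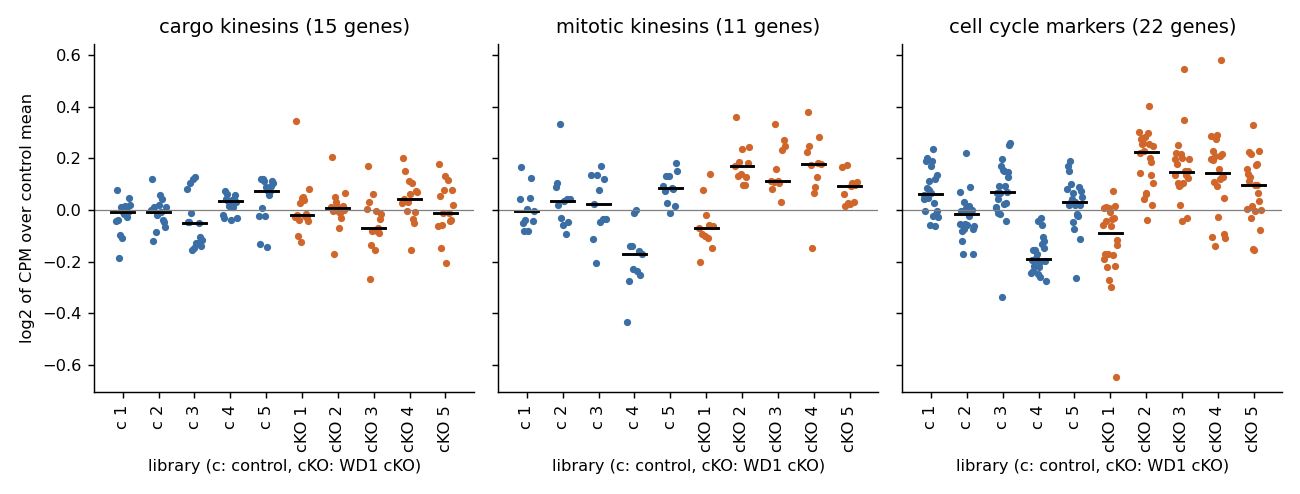
Level of the cargo kinesins, the mitotic kinesins and the cell cycle markers in each library, as log2 ratio to the control mean; points are genes and bars their medians. Control replicate 4 has the lowest medians of the mitotic kinesins (−0.17) and of the cell cycle markers (−0.19).

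Of the 9 other kinesins tested, 4 had a positive and 5 a negative log2 fold change, with a median of −0.0077 beside 0.00022 over all genes. *Kif27* was at 2.88, 3.00, 2.68, 2.76 and 2.86 CPM in control replicates 1 to 5 and 2.49, 2.70, 2.29, 1.63 and 2.28 in *WD1* cKO replicates 1 to 5. *WD1* cKO replicate 4 was the lowest library, and the groups overlapped through *WD1* cKO replicate 2, which lay above control replicate 3. *Kif27* averaged 2.84 ± 0.120 CPM in control and 2.27 ± 0.401 CPM in *WD1* cKO embryos (SD, n = 5), on 57 to 75 and 32 to 79 counts a library. Its log2 fold change was −0.31 (SE 0.13), with p = 0.0334 and adjusted p = 1.00 by the quasi-likelihood test of edgeR with Benjamini-Hochberg adjustment, and an exact two-sided permutation test gave p = 0.0159. By edgeR, *Kif27* no longer had an unadjusted p under 0.05 without control replicate 1, 2 or 5, without *WD1* cKO replicate 3, 4 or 5, or with *Xist* as a covariate. The same held with no filter on low counts. Within replicates 1 to 3 the log2 fold change of *Kif27* was −0.20 (adjusted p = 0.929) and within replicates 4 and 5 −0.49 (adjusted p = 0.779). For *Kif26b* the pooled log2 fold change was −0.062 (adjusted p = 1.00), and it was 0.022 (adjusted p = 0.974) within replicates 1 to 3 and −0.20 (adjusted p = 0.593) within replicates 4 and 5. *Kif19a*, singled out after its values were seen, was at 11.6, 11.4, 10.2, 11.7 and 12.5 CPM in control replicates 1 to 5 and 8.64, 12.2, 10.8, 16.5 and 15.2 in *WD1* cKO replicates 1 to 5. Its log2 fold change was 0.14 pooled (adjusted p = 1.00), −0.069 within replicates 1 to 3 (adjusted p = 0.973) and 0.39 within replicates 4 and 5 (adjusted p = 0.624). In replicates 4 and 5 alone both genes had an unadjusted p under 0.05 and met the study's own threshold. The share of all genes passing in that fit is not given. The difference between these sets of libraries was not tested for either gene. *Foxj1*, the master regulator of motile cilia, was at 5.02, 5.42, 7.20, 6.22 and 7.65 CPM in control replicates 1 to 5 and 7.71, 6.42, 5.76, 7.83 and 7.71 in *WD1* cKO replicates 1 to 5, with overlapping groups. *Ccdc39*, the most abundant of the 6 motile cilia markers in CPM, was at 17.5, 19.8, 19.9, 22.3 and 20.9 CPM in control replicates 1 to 5 and 21.5, 18.6, 19.3, 23.2 and 20.1 in *WD1* cKO replicates 1 to 5. Of these 6 markers 4 were tested, with a median log2 fold change of 0.0023. By edgeR or by DESeq2, 0 passed an adjusted or an unadjusted p of 0.05 (unadjusted, 4.5% of all genes by edgeR).

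**Figure D5:**
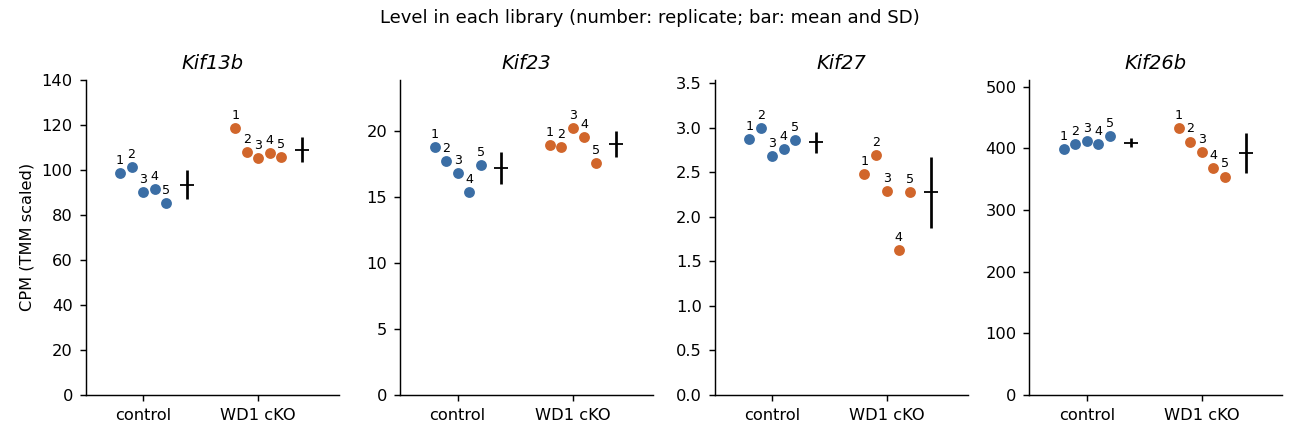
CPM of 4 kinesins in each of the 10 libraries, by genotype, with group means and SD. The *WD1* cKO libraries of *Kif13b* (105 to 119 CPM) lie above its control libraries (85.4 to 101 CPM), while the groups overlap for *Kif23*, *Kif27* and *Kif26b*.

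The spread between libraries of a group was taken gene by gene and not tested between roles. Counting error, which weighs more at low counts, was not separated from it. Mitotic kinesins had fewer counts than most cargo kinesins. The median coefficient of variation was 5.97% in control and 4.00% in *WD1* cKO embryos for cargo kinesins, 10.2% and 7.64% for mitotic kinesins, and 7.26% and 9.33% for other kinesins (n = 5 libraries a group).

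Motor subunits and family members outside the symbol rule were measured in the same fit. Of 11 such genes 6 had a positive and 5 a negative log2 fold change (median 0.0087). Of the 11, 0 had an adjusted p under 0.05 by the quasi-likelihood test of edgeR with Benjamini-Hochberg adjustment. By the same test 3 had an unadjusted p under 0.05 (4.5% of all genes by edgeR). DESeq2's Wald test gave 0 adjusted and 1 unadjusted (*Cenpe*). *Klc1*, the main neuronal light chain of conventional kinesin, was the most abundant in CPM, at 1081, 1079, 1025, 1096 and 1129 CPM in control replicates 1 to 5 and 1053, 1102, 1049, 1099 and 1139 in *WD1* cKO replicates 1 to 5. *Cenpe*, a kinetochore kinesin, was at 21.6, 20.0, 19.3, 19.1 and 20.7 CPM in control replicates 1 to 5 and 20.9, 24.3, 24.0, 24.6 and 20.3 in *WD1* cKO replicates 1 to 5. *Klc3*, another light chain, was at 1.80, 2.43, 2.07, 1.88 and 2.02 CPM in control replicates 1 to 5 and 1.56, 1.98, 1.39, 1.78 and 1.62 in *WD1* cKO replicates 1 to 5. The groups overlapped for each of them. The log2 fold change was 0.18 for *Cenpe* (exact permutation p = 0.0476) and −0.30 for *Klc3* (exact permutation p = 0.0317). *Kifc5b*, at 3.41, 3.62, 3.62, 2.87 and 2.99 CPM in control replicates 1 to 5 and 3.45, 4.10, 3.87, 4.37 and 3.64 in *WD1* cKO replicates 1 to 5, had a log2 fold change of 0.23 (exact permutation p = 0.0317). It and *Kifc1* are near-identical, so reads may be shared between them.

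Adaptors that link kinesins to their cargo gave 6 positive and 14 negative log2 fold changes among 20 genes (median −0.019). Of the 20, 0 had an adjusted p under 0.05 by the quasi-likelihood test of edgeR with Benjamini-Hochberg adjustment. An unadjusted p under 0.05 was found for 1 (4.5% of all genes by edgeR), as by DESeq2's Wald test. That gene, *Arl8a*, a small GTPase that recruits kinesins to lysosomes, was at 288, 283, 301, 309 and 302 CPM in control replicates 1 to 5 and 271, 281, 261, 266 and 251 in *WD1* cKO replicates 1 to 5. Each *WD1* cKO library was below each control library, and groups did not overlap for 1 of the 20 adaptors and for 1.06% of all genes. The test gave a log2 fold change of −0.16 (SE 0.039), p = 0.00148 and adjusted p = 0.783 by the quasi-likelihood test of edgeR with Benjamini-Hochberg adjustment, and an exact two-sided permutation test gave p = 0.00794. *Spag9*, a scaffold of kinesin and dynein and the most abundant adaptor in CPM, was at 488, 510.2, 469, 515 and 519.9 CPM in control replicates 1 to 5 and 505, 497, 485, 534 and 519 in *WD1* cKO replicates 1 to 5, with overlapping groups. Of 21 genes of dynein and dynactin, the motor complex of the opposite direction, 13 had a positive and 8 a negative log2 fold change (median 0.020). Of the 21, 0 had an adjusted or an unadjusted p under 0.05 by edgeR or by DESeq2 (unadjusted, 4.5% of all genes by edgeR). *Dync1h1*, its heavy chain and the most abundant of these in CPM, was at 1589, 1538, 1528, 1684 and 1724 CPM in control replicates 1 to 5 and 1638, 1729, 1558, 1684 and 1604 in *WD1* cKO replicates 1 to 5. *Dync1li2*, a light intermediate chain with the smallest p of the list, was at 370.0, 373, 336, 388 and 394 CPM in control replicates 1 to 5 and 394, 383, 370.5, 401 and 391 in *WD1* cKO replicates 1 to 5. For both genes the groups overlapped.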

How the data were processed

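Bulk RNA of E18.5 DRG was sequenced in 10 libraries, 5 of control and 5 of *WD1* cKO embryos. The authors prepared stranded mRNA libraries and, by the submitters' processing notes, used bcl2fastq 2.20.0.422, STAR 2.7.8a and featureCounts 2.0.1 on GRCm39; the deposited values are raw counts per gene without normalization. Symbols, lengths and exon overlaps came from the GENCODE M21 annotation of GRCm38, which named 52081 of 55414 identifiers. Libraries of a group differed pairwise beyond sampling error, with chi-square values of 4.33 to 15.7 for each degree of freedom, so each library was 1 replicate. The comparison used edgeR 4.0.16 under R 4.3.3, with a filter of 10 counts or more in 5 libraries or more, TMM scaling, the quasi-likelihood test and Benjamini-Hochberg adjustment over 17490 genes. DESeq2 1.42.0 was the alternative tool, and exact permutation tests used scipy 1.17.1. CPM are TMM-scaled. Every kinesin was counted; values in each library are printed for kinesins with an unadjusted p under 0.05, the 3 highest per length of each role, the Kif5, Kif1, Kif3, Kif21 and Kif26 genes, and, in each partner or marker list, the most abundant gene and up to 3 genes of smallest p (for glia, the gene of smallest p alone). The lists were the 3 roles, light chains and family members outside the rule, adaptors, dynein and dynactin, and markers of cell cycle, neurons, glia, connective tissue, blood, muscle, spinal cord, motile cilia and endothelium. Members and lists were chosen with earlier results of these data known. Alternatives covered scaling, count filters, tool, terms for replicate number, *Xist* as a covariate, gene length and leaving out libraries. The fit was also checked on simulated data.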

Additional observations from a re-analysis of the deposited data

Results flagged for a closer look

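In 6 of 70 groups of 5 libraries (35 kinesins in each genotype), 1 library lay far from the other 4, its gap to the nearest being over 0.71 of the group's whole range; chance alone gives about 1 in 20 groups, which is 3.5 here. *Kif13b* was at 119 CPM in *WD1* cKO replicate 1, while the remaining *WD1* cKO libraries lay at 105 to 108 CPM. *Kif11* was at 21.6 CPM in control replicate 4, against 30.0 to 32.1 CPM. *Kif20b* was at 10.9 CPM in *WD1* cKO replicate 1, against 12.4 to 12.6 CPM. *Kif3b* was at 186 CPM in control replicate 3, against 204 to 212 CPM. *Kif24* was at 4.62 CPM in control replicate 5, against 5.15 to 5.37 CPM. *Kif2a* was at 128 CPM in *WD1* cKO replicate 5, against 135 to 137 CPM.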

How the results depend on the processing

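Of 20 alternative fits, 17 were set in advance and 3, by library sets, were chosen after seeing the data. The count of kinesins with an adjusted p under 0.05 was 0 in each. The count with an unadjusted p under 0.05, 3 in the reported fit, ranged from 1 to 5 when 1 library was left out; it was 1 with both number 3 libraries left out, 1 in replicates 1 to 3 alone and 5 in replicates 4 and 5 alone. By the study's threshold 0 kinesins passed in replicates 1 to 3 alone and 3 in replicates 4 and 5 alone (*Kif13b*, *Kif19a* and *Kif26b*). Shares of all genes, 4.5% unadjusted and 0.383% by the study's threshold, are given for the reported fit alone. Counts of the alternative fits therefore cannot be judged against a share of their own. *Kif13b* had an unadjusted p under 0.05 in 20 of 20 alternatives, with log2 fold changes of 0.19 to 0.27 and adjusted p of 0.0651 to 1.00. *Kif18b* turned negative without control replicate 4 (−0.027, the lowest with 1 library left out, the highest being 0.063), without *WD1* cKO replicate 2 (−0.0043), without *WD1* cKO replicate 3 (−0.011) and in replicates 4 and 5 alone (−0.0095). In replicates 1 to 3 alone *Kif11* was at −0.017 and *Kif22* at −0.021. The median over mitotic kinesins ran from 0.085 to 0.15 with 1 library left out. Cargo over mitotic level was 32.5 with the longest transcript as length. With the replicate number as a block, 4 kinesins had an unadjusted p under 0.05, *Kif21b* beside the 3 of the reported fit, and 0 an adjusted one. Equal numbers were not treated as pairs: their correlations were 0.326, 0.0359, 0.319, 0.351 and 0.391, so that 1 of 5 was near 0, and numbers 2 and 4 correlated better with another number. The causes of these shifts were not tested. Depth limits *Kif27*, *Kif18a* and *Kif6*, with 20 to 208 counts a library, and *Kif2b*, *Kif12* and *Kif28* could not be tested.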

Other observations

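Markers of the tissues in or around the ganglia had 0 genes with an adjusted p under 0.05 by the quasi-likelihood test of edgeR with Benjamini-Hochberg adjustment in each list below. At an unadjusted p under 0.05 (4.5% of all genes by edgeR) the connective tissue list held 1 gene, *Lum*. The neuron, glia, endothelium, blood and muscle lists held 0, and DESeq2's Wald test gave the same counts. For 10 neuron genes 4 log2 fold changes were positive and 6 negative (median −0.0080). Their summed level was 13117, 13331, 11205, 13517 and 13449 CPM in control replicates 1 to 5 and 13264, 13281, 12333, 13029 and 14150.0 in *WD1* cKO replicates 1 to 5. *Nefm*, the most abundant, was at 2599, 2819, 1783, 2799 and 2838 CPM in control replicates 1 to 5 and 2907, 2843, 2421, 2684 and 3103 in *WD1* cKO replicates 1 to 5. *Pou4f1*, a sensory neuron transcription factor with the smallest p, was at 169, 165, 174, 152 and 146 CPM in control replicates 1 to 5 and 158, 158, 155, 134 and 140.5 in *WD1* cKO replicates 1 to 5. In both genes the groups overlapped. For 8 glia genes 6 log2 fold changes were positive (median 0.048), and *WD1* cKO replicate 1 was the lowest library for 5 of the 8 (median log2 ratio to the control mean −0.16). *S100b*, a calcium-binding protein with the smallest p, was at 93.8, 94.7, 83.4, 113 and 112 CPM in control replicates 1 to 5 and 103, 106, 95.8, 116 and 126 in *WD1* cKO replicates 1 to 5.

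All 6 connective tissue genes had a positive log2 fold change (median 0.095). *Lum*, a proteoglycan, was at 35.1, 26.3, 39.6, 30.8 and 33.7 CPM in control replicates 1 to 5 and 39.0, 37.9, 39.8, 35.9 and 39.4 in *WD1* cKO replicates 1 to 5, with a log2 fold change of 0.22 (exact permutation p = 0.0476). *Col3a1*, the most abundant, was at 1697, 1511, 2158, 1582 and 1865 CPM in control replicates 1 to 5 and 1687, 2012, 1953, 1937 and 1895 in *WD1* cKO replicates 1 to 5. The groups overlapped for both. Of 4 endothelial genes 3 were positive (median 0.021), with *Cdh5*, the most abundant, at 100.3, 100.2, 119, 95.6 and 77.7 CPM in control replicates 1 to 5 and 99.8, 109, 119, 82.3 and 76.6 in *WD1* cKO replicates 1 to 5 and *Cldn5*, with the smallest p, at 8.05, 6.04, 11.5, 5.00 and 10.3 CPM in control replicates 1 to 5 and 9.44, 9.35, 8.25, 8.13 and 9.67 in *WD1* cKO replicates 1 to 5. All 4 blood genes had a negative log2 fold change (from −1.57 to −0.88). *Hbb-bs*, the most abundant, was at 1294, 862, 589, 89.0 and 108 CPM in control replicates 1 to 5 and 643, 374, 273, 142 and 108 in *WD1* cKO replicates 1 to 5. *Hba-a1*, with the smallest p, was at 544, 421, 153, 30.9 and 32.9 CPM in control replicates 1 to 5 and 154, 109, 73.3, 32.2 and 28.0 in *WD1* cKO replicates 1 to 5. Replicates 4 and 5 were low in both genotypes for these globins. All 5 muscle genes were negative (median −0.53), with *Acta1*, the most abundant, at 42.4, 29.3, 40.5, 13.1 and 57.9 CPM in control replicates 1 to 5 and 25.2, 26.7, 34.8, 24.4 and 19.0 in *WD1* cKO replicates 1 to 5 and *Tnnt3*, with the smallest p, at 13.4, 7.50, 12.2, 3.90 and 22.0 CPM in control replicates 1 to 5 and 5.27, 6.57, 12.2, 7.62 and 5.74 in *WD1* cKO replicates 1 to 5. None of the 6 spinal cord genes had enough counts to be tested; beside *Slc6a5*, control replicate 3 held *Pax2* at 3.81 CPM, *Slc32a1* at 3.30 CPM and *Olig1* at 2.68 CPM.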
